A study of Mus musculus with 1536 samples.

Results

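Semaphorins, plexins and neogenin are guidance molecules, and 10 of their genes (Sema3a, Sema3d, Sema3f, Sema3g, Sema6a, Sema7a, Plxna1, Plxna2, Plxnd1 and Neo1) were followed across single lymphatic endothelial cells (LECs) of the mouse nasopharynx. The genes were chosen by symbol from the 23168 genes of the adult expression matrix, which held 9 of them. Sema3g was not in the matrix, so only its promoter was looked at. The study sorted CD31+ PDPN+ cells from the nasopharyngeal mucosa of adult c57bl/6 mice, 10 to 12 weeks old and untreated as far as the labels say, and sequenced them by Smart-seq3, a plate method that reads the full length of transcripts. Tissue from 30 mice of both sexes was pooled. The cells that passed the authors' filters make up the matrix, and their number in each group is given with the processing. Neither mouse nor plate was given for a cell, so the cells were 1 sample: they were not replicates, no test was made between groups of cells, and every difference below describes this pool. Cells were grouped by the value of Stab2, a scavenger receptor of lymphatic capillaries, and of Cldn11, a claudin that marks lymphatic valves. Each value is ln(1 + r), the natural log, where r is the gene's reads per 10000 of the cell's reads, and a cell above 1 on that scale is called Stab2-high or Cldn11-high here.

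Semaphorins are ligands that steer axons, vessels and immune cells by repulsion or adhesion. Class 3 semaphorins (Sema3a, Sema3d, Sema3f) are secreted and act through complexes of a neuropilin, which binds the ligand, and an A-type or D-type plexin, which signals through small GTPases. Sema6a spans the membrane and binds Plxna2 directly, and Sema7a is held by a lipid anchor and acts through integrin beta 1 and Plxnc1. Neogenin is a receptor for repulsive guidance molecules and netrins. In lymphatic vessels, semaphorin signals through neuropilin and plexin A1 are known for their part in valve formation, and Nrp2 is also a co-receptor for the lymphatic growth factor receptor Flt4.

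The cells carried between 7433 and 3524358 reads, with a median of 350746, and the genes found per cell had a median of 4186.5. The lymphatic markers Prox1, Pdpn, Flt4, Pecam1 and Cdh5 were each found in 95.2% to 99.8% of cells, and Lyve1 in 86.8%. Of the 5 immune markers, Ptprc and Cd3e were found in none. A count of 0 is given with the share that 3 counts would make, here 0.356%. Tyrobp was found in 3 cells, Cd79a in 2.85% and Lyz2, a lysozyme of myeloid cells, in 7.96%. In 52 wells Xist was read along with Y-linked genes. Stab2-high cells were 31.2% of all and Cldn11-high cells 17.9%, 22 cells were both and 450 neither. Stab2 lay between 0.8 and 1.2 in 52 cells and Cldn11 in 67. None of the 4 other valve markers that could be called (Itga9, Gata2, Nfatc1 and Gja4) was higher in Cldn11-high cells by the rule used below, so these cells are named by Cldn11 and not as valve cells. All intervals below are exact 95% intervals, and they and the limits for a count of 0 cover counting error only.

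Sema7a, Sema3a and Neo1 were the members that differed most by Stab2 or Cldn11, and the 250 bases before the RefSeq transcription start of each are shown to place that difference beside its promoter (GRCm38.p6, 5′ to 3′ on the gene's strand). Capitals mark the letters TGGAAA of the NFAT motif. The Sema7a stretch is chr9:57939862-57940111 on the plus strand, the Sema3a stretch is chr5:13396534-13396783 on the plus strand, and the Neo1 stretch is chr9:59036442-59036691 on the minus strand.
Sema7a: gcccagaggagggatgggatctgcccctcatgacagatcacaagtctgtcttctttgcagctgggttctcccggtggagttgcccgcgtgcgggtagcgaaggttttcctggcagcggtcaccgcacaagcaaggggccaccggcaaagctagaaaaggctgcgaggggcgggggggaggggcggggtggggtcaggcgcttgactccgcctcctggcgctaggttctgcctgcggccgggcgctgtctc
Sema3a: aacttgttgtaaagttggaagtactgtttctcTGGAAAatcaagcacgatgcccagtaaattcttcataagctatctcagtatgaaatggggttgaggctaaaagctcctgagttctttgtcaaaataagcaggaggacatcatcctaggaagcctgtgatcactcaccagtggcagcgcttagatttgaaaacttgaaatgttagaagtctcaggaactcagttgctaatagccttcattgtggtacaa
Neo1: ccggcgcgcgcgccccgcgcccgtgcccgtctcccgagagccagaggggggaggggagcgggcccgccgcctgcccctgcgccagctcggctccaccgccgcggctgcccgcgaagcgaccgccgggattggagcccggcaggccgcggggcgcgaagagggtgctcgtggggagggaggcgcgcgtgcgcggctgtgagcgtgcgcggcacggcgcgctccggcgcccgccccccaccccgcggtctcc
The promoters differed in composition. The Neo1 stretch was 83.2% G or C with 45 CpG dinucleotides, the Sema7a stretch 66.4% with 17, and the Sema3a stretch 40.8% with 2, beside a median of 52.4% G or C over 32851 mouse promoters of that length. The Sema3a start used by RefSeq lies within the longer GENCODE gene, which begins at 13125414, and the counts per gene do not show which start was used.

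Both strands were searched for the core letters of 4 motifs of factors known from lymphatic or valve endothelium: GTAAACA for FOX factors, AGATAA for GATA factors, TGACTCA for AP-1 and TGGAAA for NFAT. Of the 7 members with a promoter in the table, which include Sema3g, Sema3a held TGGAAA once, and no other match was present. Of all promoters, 18.6% hold TGGAAA. The other shares over all promoters were 3.17% for GTAAACA, 9.99% for AGATAA and 4.46% for TGACTCA. No promoter was listed for Plxna1 or Sema3f, and that of Sema6a was not used here.

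Among the ligands, the secreted semaphorins Sema3d and Sema3f and the membrane semaphorin Sema6a were found in nearly all LECs. At least 1 read was found for Sema3d in 92.2% of cells (interval 90.1% to 93.9%), for Sema3f in 90.9% (88.7% to 92.7%) and for Sema6a in 90.5% (88.3% to 92.4%), intervals that overlap. Sema3a was found in 70.8% (67.6% to 73.8%) and Sema7a in 49.8% (46.3% to 53.2%). No cell lacked all 5 semaphorins, 44.5% of cells held 4 of them and 29.2% held all 5.

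Per kilobase of exon, Sema3f had the highest mean level of the members, at 0.647 ± 0.699 reads per 10000 per kb (SD over all cells). Sema7a followed at 0.368 ± 0.758, Sema3d at 0.308 ± 0.410, Sema6a at 0.299 ± 0.344 and Sema3a at 0.0863 ± 0.137. The spread between cells exceeded the mean for each of these genes and no neighbours in this order differed beyond it. Sema7a had a median of 0 and an upper quartile of 0.395 reads per 10000 per kb, so its mean came from fewer cells than that of Sema3d, with a median of 0.223 at a lower mean.

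On the natural log scale of the deposited values, the single-cell levels of Sema3d ran from 0 to 4.18 with a median of 1.07. Those of Sema3f ran from 0 to 3.64 with a median of 1.23, and those of Sema6a from 0 to 3.37 with a median of 1.01. Sema3a ran from 0 to 2.88 with a median of 0.34 and Sema7a from 0 to 3.09. A value above 1 was reached by Sema3f in 59.1% of cells, by Sema3d in 53.7%, by Sema6a in 50.1%, by Sema3a in 24.3% and by Sema7a in 21.3%.

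**Figure D1:**
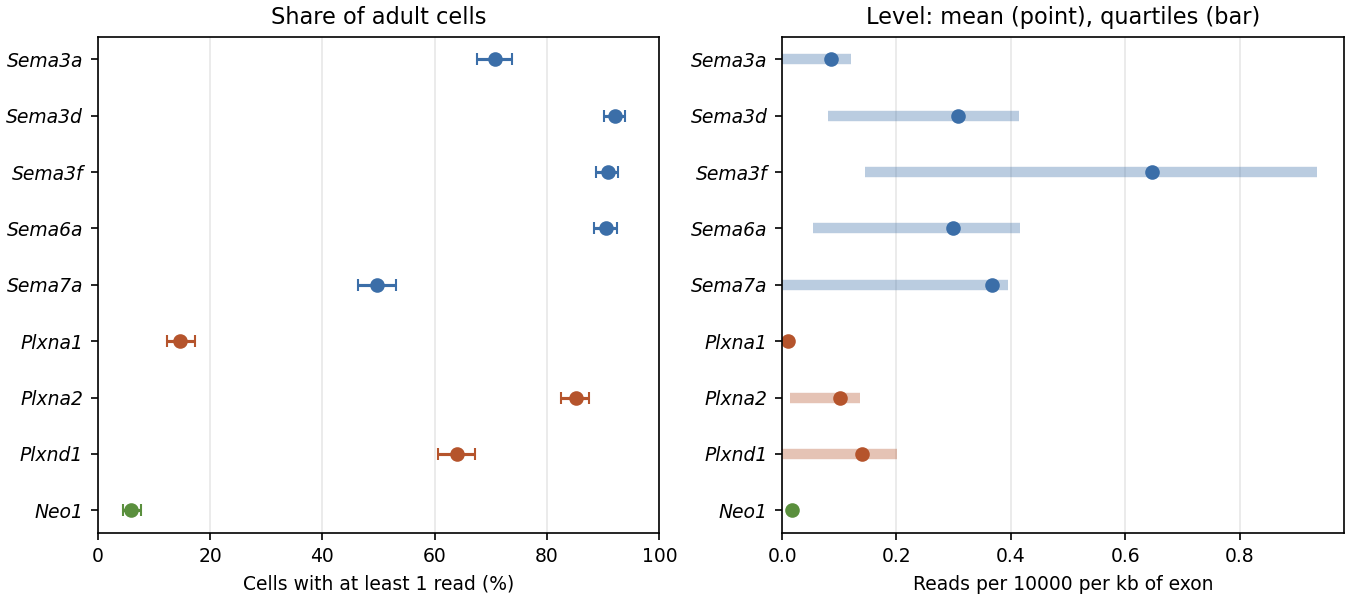
Share of adult cells with at least 1 read of each member (left, points with exact 95% intervals) and level in reads per 10000 per kb of exon (right, point for the mean, bar from the lower to the upper quartile over cells). Sema3d, Sema3f, Sema6a and Plxna2 were found in over 85% of cells and Plxna1 and Neo1 in 14.7% and 5.9%, and the quartile bar of Sema3f reached highest.

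The plexins, the receptors that carry semaphorin signals into the cell, were unequal. Plxna2 was found in 85.2% of cells (82.6% to 87.5%) and Plxnd1, the D-type plexin of endothelium, in 63.9% (60.5% to 67.1%), while Plxna1 was found in 14.7% (12.4% to 17.3%). Per kilobase of exon the order was different, with Plxnd1 at 0.140 ± 0.244 reads per 10000 per kb, Plxna2 at 0.101 ± 0.132 and Plxna1 at 0.00969 ± 0.0489 (SD over all cells). Plxna2 and Plxnd1 lay within each other's spread. Of the 9054 exon bases of Plxna1, 970 overlap exons of Gm26811 on the other strand. No source used here says whether counting was stranded, so reads over that stretch cannot be told apart.

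Neo1 was found in 50 cells, 5.9% of all (4.4% to 7.8%), at a mean of 0.0171 ± 0.125 reads per 10000 per kb. It was sparse but not uniformly low, since the highest cell had a value of 2.86 on the natural log scale and 20 cells were above 1. All 50 cells with Neo1 also had reads of Prox1, the transcription factor that defines LECs, and 49 had reads of Flt4. Over all cells, Prox1 was found in 97.7% and Flt4 in 99.8%, so these counts do not set the Neo1 cells apart.

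The neuropilins, which are not members but which class 3 semaphorins need, differed widely from each other. Nrp2 was found in 93.8% of cells (92% to 95.4%) at 0.394 ± 0.419 reads per 10000 per kb, and Nrp1, the usual partner of Sema3a, in 7 cells (0.831%, 0.33% to 1.7%). Reads of Sema3a and Nrp1 together were found in 5 cells, those of Sema3f and Nrp2 in 86.3% (83.8% to 88.6%). A class 3 semaphorin, Nrp2 and either Plxna2 or Plxnd1 were found together in 86.5% of cells (84% to 88.7%), in 91.6% of Stab2-high cells (87.6% to 94.7%) and in 80.1% of Cldn11-high cells (72.9% to 86.2%). Sema6a and its receptor Plxna2 were found together in 78.7% of cells (75.8% to 81.5%). For Sema7a, its integrin subunit Itgb1 was found beside it in 46.8% of all cells (43.4% to 50.2%) and in 77.6% of Stab2-high cells (72% to 82.5%), and its plexin Plxnc1 in 9 cells. Itgb1 itself was found in 93.6% of all cells, and Sema7a itself in 49.8% of all cells and 82.1% of Stab2-high cells. Genes found in most cells are found together in most cells, so these shares do not show pairing.

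The share of cells in which some members were found went with depth. From the shallowest to the deepest quartile of cells, the share of cells with Sema3a went from 52.6% to 84.8%, with Plxna2 from 66.4% to 95.3%, with Plxnd1 from 47.9% to 76.8% and with Plxna1 from 8.1% to 24.6%. The share with Neo1 was 5.2% and 8.1% at the ends, with overlapping intervals of 2.6% to 9.1% and 4.8% to 12.6%, and that with Nrp1 did not pass 1.4% in any quartile. Among the cells that had 20000 reads and were thinned to that number (51 cells had fewer), 80.5% held Sema3f, 79.9% Sema3d, 76.9% Sema6a, 69.2% Plxna2, 51.8% Sema3a, 43.1% Plxnd1, 37.2% Sema7a, 6.6% Plxna1 and 3.8% Neo1. The level of Sema3f on the natural log scale moved the other way from its share, from a mean of 1.29 ± 0.821 in the shallowest quartile to 1.06 ± 0.691 in the deepest (SD over cells), and that of Sema7a from 0.55 ± 0.752 to 0.39 ± 0.633. The part of depth in these differences was not tested.

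The comparison of Stab2-high cells with the rest asked which members go with Stab2, which was read with Ptx3 as a marker of 1 class of capillary LECs. Fndc1 and Ptn, markers of the other capillary class, had log2 ratios of -1.19 and -0.95, and 11 of the Fndc1-high cells and none of the Ptn-high cells were Stab2-high, so the split is not one of capillary cells against others. A gene was called when the log2 ratio of its mean reads per 10000 plus 1 was at least 0.3 in either direction and at least 30% of either group held it. Of 5807 genes that could be called, 5.41% were higher and 4.51% lower. Of the 9 members, 7 could be called, 2 were higher (Sema7a and Plxna2) and 0 were lower. Plxna1 and Neo1 were below the minimum share. Other lists moved with Stab2. The summed level of 17 immediate early genes had a median of 173.8 reads per 10000 in Stab2-high cells (range 0.898 to 913.3) and 241.3 in the rest (1.07 to 1082.8), with Atf3, Ier3 and Zfp36 lower (log2 ratios -0.62, -0.47 and -0.33) among 16 that could be called. Of the 5 blood endothelial markers, Selp and Plvap were higher (1.13 and 0.93) and Emcn lower (-0.35). Their median sums were 40.9 (0.465 to 139.3) and 39.5 (0.118 to 185.9) reads per 10000. Of all cells, Cldn5 was found in 100%, Emcn in 94.2%, Plvap in 77.8%, Selp in 33.3% and Flt1 in 2.49%. The part of these lists in the members' ratios was not tested.

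Sema7a differed most. In Stab2-high cells its values on the natural log scale ran from 0 to 3.09 with a median of 1.06, and in the others from 0 to 2.26 with a median of 0. The ranges overlapped, but 82.1% of Stab2-high cells (77% to 86.6%) held Sema7a beside 35.1% of the rest (31.2% to 39.1%). The mean value was 1.07 ± 0.812 against 0.20 ± 0.414 in ln(1 + r), with SDs over cells, and mean reads per 10000 were 3.06 ± 3.58 against 0.374 ± 1.01, a ratio of 8.18 and a log2 ratio of 1.56 after adding 1. Only 4 of the 5807 genes had a higher log2 ratio. Median depth was 368560 reads in Stab2-high cells and 350281 in the rest, and at 20000 reads per cell the shares were 73.2% and 20.9%.

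The share of cells with Sema7a followed Stab2 in steps. It was 32.7% where Stab2 had no read, 37.9% for Stab2 values up to 0.5 and 42.6% between 0.5 and 1. It was then 70.7% between 1 and 1.5, 74.6% between 1.5 and 2, 91.7% between 2 and 2.5, 89.4% between 2.5 and 3 and 87.5% above 3. The mean value of Sema7a on the natural log scale went on from 0.72 in the first of the bins above 1 to 1.42 in the last. Median depth was 452430 reads in that first bin and 195616 in the last, and the part of depth was not tested. Read the other way, 77.7% of the cells with Sema7a above 1 (70.8% to 83.5%) were Stab2-high, beside 31.2% of all cells.

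**Figure D2:**
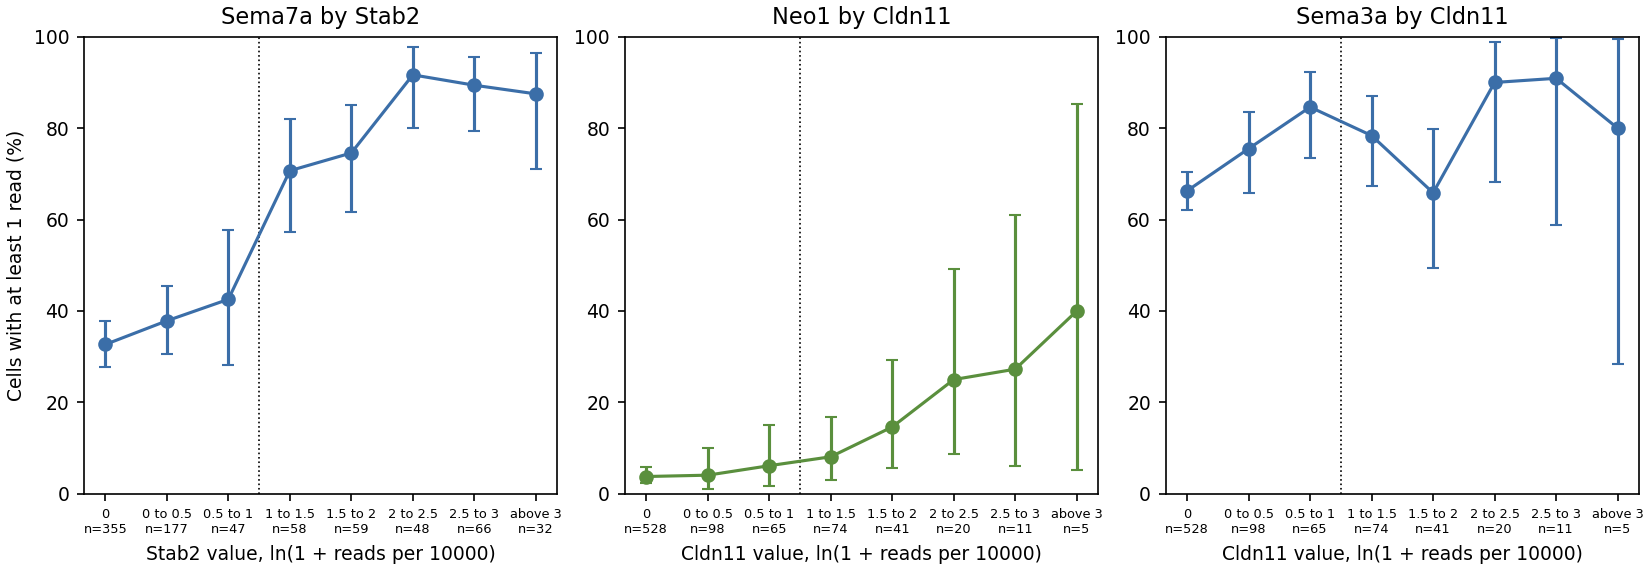
Share of cells with at least 1 read of Sema7a by the Stab2 value and of Neo1 and Sema3a by the Cldn11 value (points with exact 95% intervals, number of cells under each bin, dotted line at a marker value of 1). Sema7a rose from 32.7% to between 87.5% and 91.7% of cells in the highest 3 bins, Neo1 went from 3.8% to 40% with 11 and 5 cells in the last bins, and Sema3a showed no steady order.

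Sema7a also differed by other subtype markers. It was found in 73.8% of the 42 cells above 1 for Ptx3 (58% to 86.1%), a secreted pattern recognition protein of a capillary subset, in 23.9% of the cells above 1 for Fndc1 (17.2% to 31.8%) and in 12.9% of the 85 cells above 1 for Ptn (6.6% to 22%). The Ptn-high cells were deeper, with a median of 575355 reads. None of the 85 had Sema7a above 1 (3 counts would be 3.53%), and none was Stab2-high. Within Stab2-high cells, Sema7a was found in 87.1% of the 31 that were also above 1 for Ptx3 (70.2% to 96.4%) and in 81.5% of those that were not (75.9% to 86.2%). Of the 11 Ptx3-high cells that were not Stab2-high, 4 held Sema7a (36.4%, 10.9% to 69.2%). The capillary hyaluronan receptor Lyve1 made little difference: Sema7a was found in 83.2% of Stab2-high cells above 1 for Lyve1 and in 80.7% of those not above 1, with overlapping intervals.

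Across all cells, the 3 genes among 5433 whose natural log values followed Sema7a most closely were Gm525 (Pearson's r = 0.66), Stab2 (0.61) and Aqp1, a water channel (0.58). In the cells with at least 100000 reads these r were 0.67, 0.63 and 0.58. Vim had the lowest, at -0.55. Cells share depth and pool, so these r describe the pool. For none of the other 6 members among those genes did any gene reach 0.3, and their highest r lay between 0.17 for Plxnd1 and 0.29 for Sema3a.

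Plxna2 differed far less. Its natural log values ran to 2.82 in Stab2-high cells and to 2.86 in the rest, with medians of 0.91 and 0.63, and it was found in 89.7% (85.4% to 93.1%) and 83.1% (79.8% to 86%) of cells. Mean reads per 10000 were 2.19 ± 2.47 and 1.53 ± 2.14, a ratio of 1.43 and a log2 ratio of 0.34 that falls under 0.3 when reads are summed over cells (0.29). The means were closer than the SD over cells. Plxnd1 was found in 71.1% of Stab2-high cells (65.2% to 76.5%) and 60.6% of the others (56.5% to 64.6%), with a log2 ratio of 0.18 that was not called, but that was 0.39 for cells with Stab2 above 2 and 0.32 with a pseudocount of 0.1.

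The secreted semaphorins lay on the other side without reaching the threshold. Sema3a had a log2 ratio of -0.28, with 66.2% of Stab2-high cells (60.1% to 71.9%) and 72.9% of the others (69.1% to 76.5%), and Sema3f of -0.26, with 90.1% and 91.2%. Both passed 0.3 under some alternatives given in the closing section. Sema3d had a log2 ratio of -0.06 and the membrane semaphorin Sema6a of 0.19. Plxna1 was found in 14.4% and 14.9% of cells. Neo1 was found in 6 Stab2-high cells (2.3%, 0.84% to 4.9%) and in 44 of the others (7.6%, 5.6% to 10.1%).

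**Figure D3:**
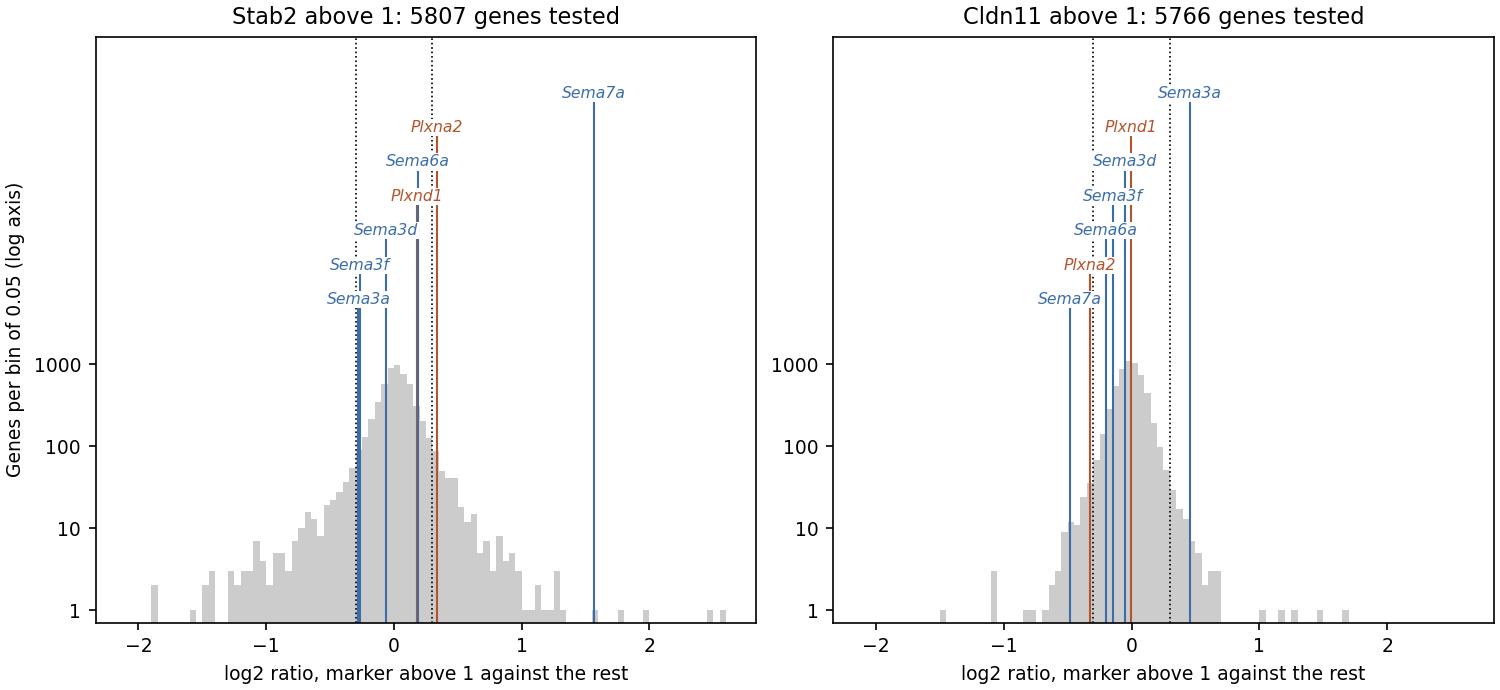
Number of genes per bin of log2 ratio (grey bars, log axis) for Stab2-high cells against the rest and Cldn11-high cells against the rest, with the 7 members that could be called as lines and the threshold of 0.3 as dotted lines. The heights of the lines only separate the labels. Sema7a lies at 1.56 in the first comparison and at -0.48 in the second, where Sema3a lies at 0.46.

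The comparison of Cldn11-high cells with the rest used the same rule on a marker of valves. Of 5766 genes that could be called, 1.46% were higher and 1.8% lower. Of the 7 members that could be called, 1 was higher (Sema3a) and 2 were lower (Sema7a and Plxna2). The lymphatic markers Pdpn and Lyve1 were also lower (log2 ratios -0.35 and -0.45), as were Plvap and Selp (-0.34 and -0.42), and none of 17 immediate early genes was called. The groups of the 2 comparisons are cut from the same cells, so the rest of one holds most of the high cells of the other, and the values are given side by side.

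Sema3a, the class 3 semaphorin that binds Nrp1, was found in 77.5% of Cldn11-high cells (70% to 83.9%) and in 69.3% of the rest (65.7% to 72.7%), intervals that overlap. Its natural log values ran to 2.76 and 2.88, with medians of 0.60 and 0.28 and means of 0.73 ± 0.725 and 0.52 ± 0.586 (SD over cells). Mean reads per 10000 were 1.83 ± 2.73 and 1.06 ± 1.63, a ratio of 1.72 and a log2 ratio of 0.46, with 23 of 5766 genes higher. By bins of Cldn11 its share was 66.3% with no Cldn11 read, 84.6% between 0.5 and 1, 65.9% between 1.5 and 2 and 90% between 2 and 2.5 (20 cells), so it did not climb steadily. Of the Cldn11-high cells, the 99 not above 1 for Gja4, a connexin of valves and arteries, had a mean of 0.80 ± 0.762 for Sema3a and the 52 above 1 had 0.61 ± 0.640, closer than the spread over cells.

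Neo1, the member found in the fewest cells, was not called, since under 30% of either group held it. It was found in 22 Cldn11-high cells (14.6%, 9.4% to 21.2%) and in 28 others (4.1%, 2.7% to 5.8%). Mean reads per 10000 were 0.537 ± 2.26 and 0.0644 ± 0.538, a ratio of 8.33 carried by few cells, and the log2 ratio after adding 1 was 0.53. Thinned to 20000 reads, 8.9% and 2.6% of cells held it. Of the 20 cells with Neo1 above 1, 11 (55%, 31.5% to 76.9%) were Cldn11-high, beside 17.9% of all cells. Along Cldn11 the share with Neo1 was 3.8% at 0, 8.1% between 1 and 1.5, 14.6% between 1.5 and 2 and 25% between 2 and 2.5, and the 2 bins above held only 11 and 5 cells.

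Within Cldn11-high cells, Neo1 was found in 18.2% of those not above 1 for Gja4 (18 of 99, 11.1% to 27.2%) and in 7.7% of those above 1 (4 of 52, 2.1% to 18.5%), intervals that overlap. Across cells, r between Neo1 and Cldn11 was 0.26, and 0.31 in cells with at least 100000 reads. The fibroblast markers Pdgfra, Dcn, Col1a1, Lum and Dpt were looked at beside this, because Dcn was found in 16.6% of Cldn11-high cells and 11.4% of the rest. At least 1 of the 5 was found in 27 of the Cldn11-high cells (17.9%) and in 99 of the rest (14.3%), their summed level ran from 0 to 156.3 and from 0 to 6.18 reads per 10000 with medians of 0, and Pdgfra was at 0 in all Cldn11-high cells. Of the 50 cells with Neo1, 8 held a fibroblast marker (16%, 7.2% to 29.1%), beside 14.9% of cells without Neo1. Without the cells that held any of them, Neo1 was found in 15.3% of Cldn11-high cells (9.5% to 22.9%) and in 3.9% of the others (2.5% to 5.8%).

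Sema7a was found in 36.4% of Cldn11-high cells (28.8% to 44.6%) and in 52.7% of the rest (48.9% to 56.5%), with mean reads per 10000 of 0.672 ± 1.90 and 1.33 ± 2.60 and a log2 ratio of -0.48. Among Cldn11-high cells, Sema7a was found more often in the 22 that were also Stab2-high. Of those, 68.2% held it (15 of 22, 45.1% to 86.1%), beside 31% of the Cldn11-only cells (23.2% to 39.7%) and 36.2% of the 450 cells high for neither (31.8% to 40.9%). The Cldn11-only cells and the cells high for neither thus overlapped in Sema7a. Plxna2 was found in 83.4% and 85.5% of cells, with mean reads per 10000 of 1.26 ± 1.48 and 1.84 ± 2.39 and a log2 ratio of -0.33. Plxna1, the plexin A known from valves, was found in 15.2% of Cldn11-high cells (9.9% to 22%) and 14.6% of the rest (12.1% to 17.5%), and Plxnd1 in 62.9% and 64.1%. Sema3d, Sema3f and Sema6a had log2 ratios of -0.05, -0.14 and -0.20.

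The counts of members moved with the rule, and so did the share of all genes called. In Stab2-high cells Plxna2 was no longer higher when the log2 ratio had to reach 0.58 (1.17% of genes higher), with summed reads (5.51%) or with Stab2 above 0 (2.28%), and Sema7a was higher under each of these. Plxnd1 was also higher with a pseudocount of 0.1 (18.8%) and with Stab2 above 2 (7.18%). Sema3a was lower with a pseudocount of 0.1 (11.3% of genes lower) and without the cells high for both markers (4.84%), and Sema3f with that pseudocount and without the cells that held a fibroblast marker (4.84%). In Cldn11-high cells Neo1 was also higher with a minimum share of 10% (1.03%) or none (0.462%), and no member passed 0.58 (0.191% of genes higher, 0.173% lower). Plxna2 was no longer lower there with a natural log difference of 0.2 (0.884%), summed reads (2.55%), thinned reads (2.79%), or Cldn11 above 0 (0.773%) or above 2 (8.05%), and Sema7a was. Sema6a was also lower without the cells high for both markers (2.63%), with a log2 ratio of -0.31, and that of Sema7a was then -0.79.

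**Figure D4:**
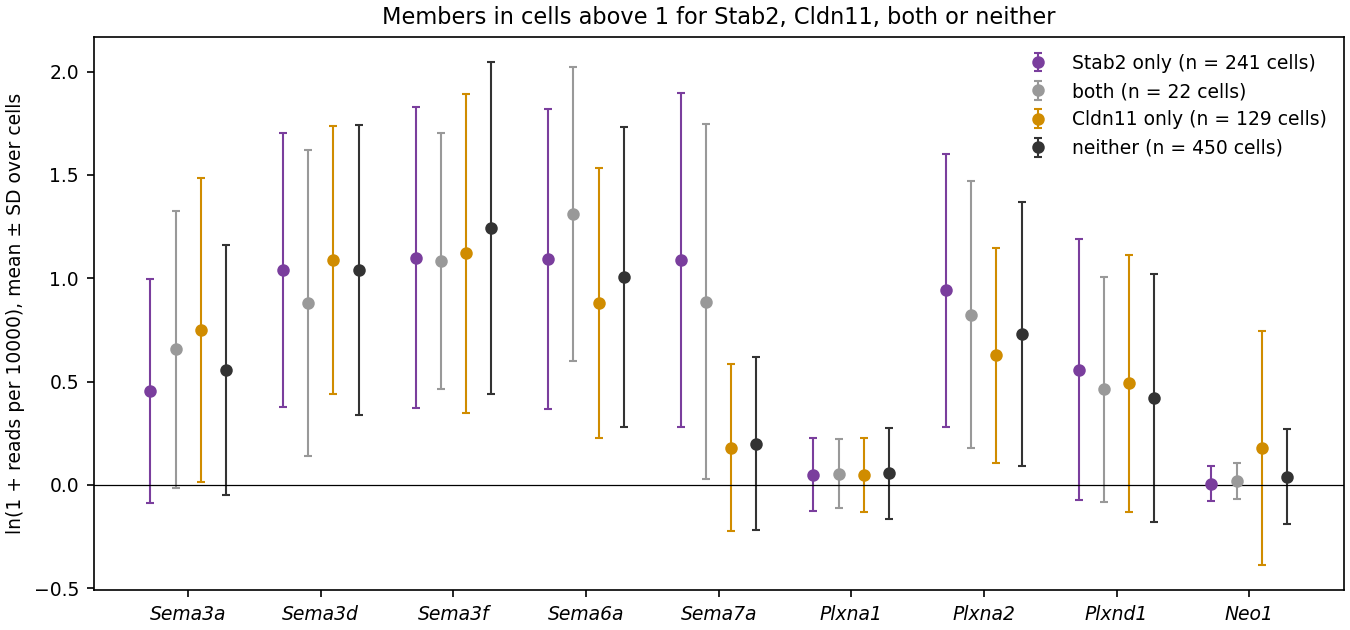
Mean natural log value of each member, ln(1 + reads per 10000), with the SD over cells as bars, in cells above 1 for Stab2 only, for both markers (22 cells), for Cldn11 only and for neither (450 cells). Sema7a lies at 1.09 in Stab2-only cells and at 0.18 and 0.20 in Cldn11-only cells and cells high for neither. The bars of every member, Sema7a among them, overlap across the groups.

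Over the 4 groups, Sema7a had a mean natural log value of 1.09 ± 0.808 in Stab2-only cells and 0.89 ± 0.859 in cells high for both, against 0.18 ± 0.404 in Cldn11-only cells. Neo1 was found in 16.3% of Cldn11-only cells (21 cells, 10.4% to 23.8%), in 1 of the 22 cells high for both, in 2.1% of Stab2-only cells (5 cells, 0.68% to 4.8%) and in 5.1% of the 450 cells high for neither (23 cells, 3.3% to 7.6%), which held the most Neo1 cells of the 4 groups. On the natural log scale, the group means of Neo1 and of the other 7 members differed by less than the larger SD over cells. Sema3d, for example, had means of 1.04, 0.88, 1.09 and 1.04 on the natural log scale in Stab2-only cells, cells high for both, Cldn11-only cells and cells high for neither.

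Other members were also compared by the remaining subtype markers. Sema3f had a mean natural log value of 1.35 ± 0.788 in Fndc1-high cells and 1.14 ± 0.768 in the rest, with shares of 93.7% and 90.3%. Plxnd1 was found in 53.5% of Fndc1-high cells (45% to 61.9%) and 66% of the rest (62.4% to 69.5%). It was found in 50.3% of cells above 1 for Foxp2 (42% to 58.6%), a transcription factor of collecting vessels, against 66.8% (63.2% to 70.3%). Median depth was 460549 reads in Foxp2-high cells and 322571 in the rest, and the part of depth was not tested. Sema3a was above 1 in 33.6% of Foxp2-high cells (26% to 41.7%) and 22.4% of the rest (19.3% to 25.7%). Neo1 was found in 1 Fndc1-high cell (0.70%, 0.018% to 3.9%) and in 2.7% of Lyve1-high cells (1.4% to 4.8%) against 9.0% of the rest (6.5% to 12.1%).

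**Figure D5:**
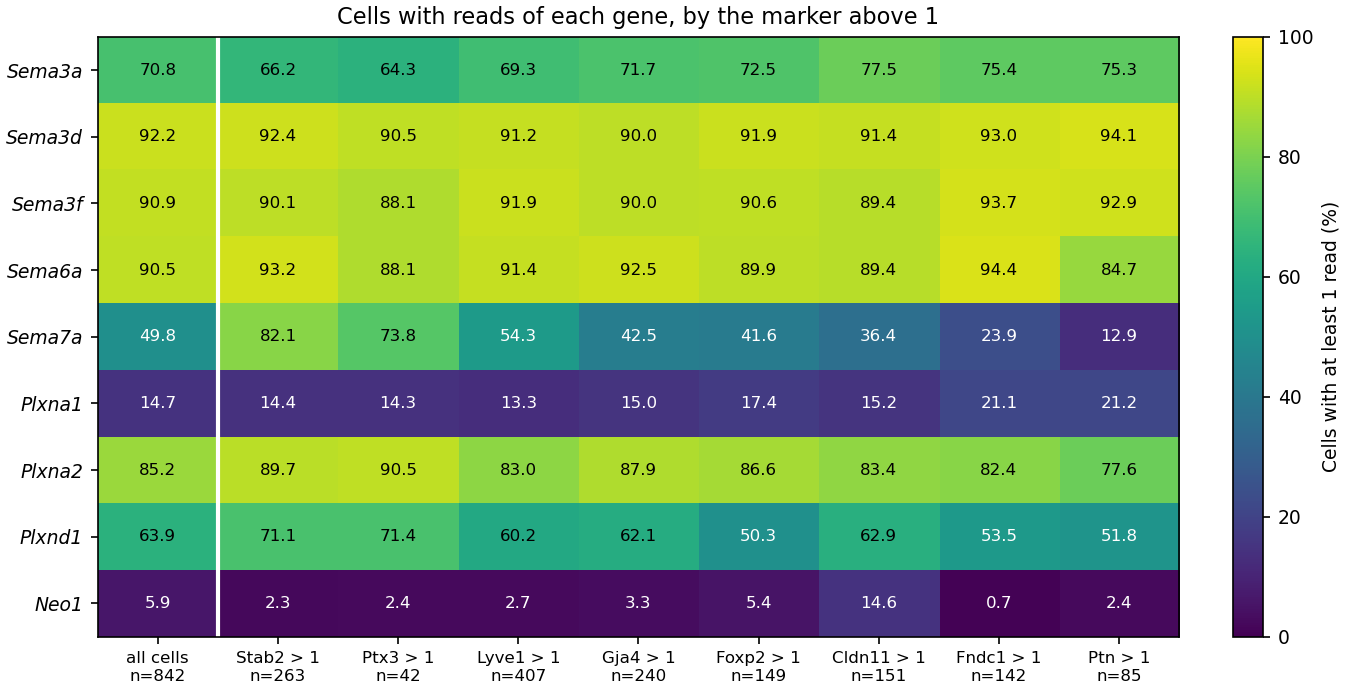
Percent of cells with at least 1 read of each member among all cells and among cells above 1 for each of 8 subtype markers (cells may count under several markers). Sema7a ranges from 12.9% in Ptn-high to 82.1% in Stab2-high cells, Neo1 is highest under Cldn11 at 14.6%, and Sema3d stays between 90% and 94.1%.

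The members varied together only weakly from cell to cell. Over the 36 pairs of members, Pearson's r of the natural log values lay between -0.12 for Sema6a with Neo1 and 0.15 for Sema3a with Sema3f. In cells with at least 100000 reads the range was -0.14 to 0.23, the highest for Sema3a with Neo1. Sema3f and Nrp2 had an r of 0.14 and Sema6a and Plxna2 of 0.10. Such values describe the pool and are no finding.

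The wider pathway was taken from a list of 68 other semaphorins, plexins, co-receptors, neogenin partners and signalling proteins, of which 60 were in the matrix and 21 were found in at least 50% of cells. In Stab2-high cells 32 could be called, 3 were higher (9.4%, beside 5.41% of all genes) and 7 lower (21.9%, beside 4.51%), with a median log2 ratio of 0.06 over the 32, beside 0.02 over all genes tested. In Cldn11-high cells 1 was higher (3.1%, beside 1.46%) and 2 lower (6.2%, beside 1.8%) of 32, with a median log2 ratio of -0.06 beside -0.01. The largest ratios were those of receptors: Unc5b, a netrin receptor, had a log2 ratio of 0.94 in Stab2-high cells, Itga1, the integrin alpha 1 subunit, 0.67, and Nrp2 0.64. Nrp2 was found in 96.2% of Stab2-high cells (93.1% to 98.2%) and 92.7% of the rest (90.3% to 94.7%), with mean reads per 10000 of 6.52 ± 5.43 and 3.83 ± 4.49. In Cldn11-high cells Nrp2 and Itga1 were lower, with log2 ratios of -0.55 and -0.40.

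The pathway genes lower in Stab2-high cells were the netrin Ntn1 (log2 ratio -0.61), the collapsin response mediator Dpysl3 (-0.49), the membrane semaphorin Sema4d (-0.35), the receptor tyrosine kinase Met (-0.34), the adhesion molecule L1cam (-0.33), the actin oxidase Mical2 (-0.33) and the small GTPase Rnd1 (-0.31). Rnd1, which binds plexins, was the gene higher in Cldn11-high cells, with a log2 ratio of 0.38. Along the cells, Sema7a had an r of 0.34 with Unc5b and of -0.28 with Ntn1.

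Of the other ligands and plexins, Sema6b was found in 67.6% of cells and Plxna4 in 60.3%, at 0.181 and 0.0514 reads per 10000 per kb, and neither was called in either comparison. The co-receptors Itgb1 and Kdr were found in 93.6% and 97.6% of cells and Bmpr2, a receptor for bone morphogenetic proteins, in 72.8%. The signalling genes Mical3, Dpysl2, Fyn, Rras, Rap1b, Rhoa, Rac1, Arhgef12, Gsk3b and Ptk2 were found in 52.7% to 96.7% of cells, and none was called. Of the neogenin ligands, Ntn1 was found in 90.9% of cells, at 0.618 reads per 10000 per kb, and Rgma and Rgmb in 8.8% and 12.2%, and the netrin receptor Unc5c in none (3 counts would be 0.356%).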

How the data were processed

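The authors aligned the Smart-seq3 reads with STAR (mm10), used featureCounts for gene counts, required 2000 genes and at most 10% mitochondrial reads per cell in Seurat 4.1.0, and deposited natural log values, ln(1 + reads per 10000). Back-transformed, these summed to 10000 in all 842 cells (of 1536 wells listed) and 100% gave whole reads (tolerance 0.01 reads), although the methods name base 2.

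Groups were cut at a marker value of 1: Stab2-high 263 cells against 579, Cldn11-high 151 against 691, Stab2-only 241, Cldn11-only 129. The call rule takes its thresholds (0.3, 30%) from the marker search in the study's methods, but not its MAST test, and the genes which that search left out (dissociation-induced, mitochondrial and ribosomal) were kept here and are part of the shares over all genes. Stab2 and Cldn11 themselves were left out, and 1 pooled sample allowed no test. Intervals are Clopper–Pearson at 95%. Thinning drew 20000 reads without replacement from 791 cells, and 616 cells had at least 100000. Exon lengths are from GENCODE M21, which matched 22272 symbols (96.1%), and promoters from RefSeq. Pathway genes were named when found in at least 50% of cells or called, and Nrp1, Plxnc1, Rgma, Rgmb and Unc5c were named after their values were seen. Likeness was Pearson's r of at least 0.3, with 3 genes per member. The members and lists were chosen with earlier results of these data known. The comparison was also run on simulated counts with known changes. Only genes with higher mean levels than Neo1 and Plxna1 were changed there, with the same form of spread between cells for every gene. The simulation therefore does not cover Neo1 and Plxna1, and its spread was not matched to that of the other members. Python 3.11.15, NumPy 2.4.6, pandas 2.3.3, SciPy 1.17.1 and Matplotlib 3.10.9 were used.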

Additional observations from a re-analysis of the deposited data

How the results depend on the processing

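The cells are 1 pooled sample, so no alternative gives an error between mice, no replicate could be left out, and shares found depend on depth. No paired analysis was possible because there is 1 group. Sema7a was higher in Stab2-high cells under every alternative run, with log2 ratios of 1.02 (Stab2 above 0) to 2.74 (pseudocount 0.1). Of the members higher there, 1 in place of 2 was left at a log2 ratio of 0.58, with summed reads or with Stab2 above 0, and 3 were higher (Plxnd1 added) with a pseudocount of 0.1 or Stab2 above 2. In place of 0 members lower, a pseudocount of 0.1 gave 2, leaving out cells high for both markers 1, and leaving out cells with fibroblast markers, chosen after seeing the data, 1 (Sema3f, -0.30). In Cldn11-high cells, 2 members in place of 1 were higher with a minimum share of 10% or none and 0 at 0.58, where 0 in place of 2 were lower. A natural log difference of 0.2, summed reads, thinning, or Cldn11 above 0 or above 2 left 1 lower, and leaving out cells high for both markers gave 3 (Sema6a added, -0.31). No called ratio changed sign, and the causes were not tested. Over all genes, the percent called either way in Stab2-high cells was 9.92%, against 30.2% with a pseudocount of 0.1, 2.84% at 0.58 and 4.57% with Stab2 above 0. In Cldn11-high cells it was 3.26%, against 21%, 0.364% and 1.63%, and it was 5.15% with summed reads and 15.4% with Cldn11 above 2.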
